A study of Mus musculus with 70 samples.

Results

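The genes described here are 45 genes of mitosis and chromosome segregation, picked by symbol from a fixed list out of the 23078 genes in the expression table. The rule used symbols and no measured value, but the list was chosen with earlier results of these data known. All 45 were found and all 45 passed the filter on low values. They fall into 10 roles: the cyclins and Cdk1 (Ccna2, Ccnb1, Ccnb2, Cdk1), the mitotic kinases Aurka and Plk1, the chromosomal passenger complex (Aurkb, Birc5, Incenp, Cdca8), the spindle checkpoint kinases (Ttk, Bub1, Bub1b), the centromere and kinetochore (Cenpa, Cenpe, Cenpf, Ndc80, Nuf2, Spc25), chromosome structure (Top2a, Mki67, Ncapg, Ncapd2, Ncaph, Smc2, Smc4), the kinesins (Kif11, Kif15, Kif20a, Kif20b, Kif22, Kif23, Kif2c, Kif4), spindle proteins (Tpx2, Nusap1, Prc1, Hmmr, Aspm), cytokinesis (Ect2, Anln, Racgap1), and the anaphase promoting complex with separase (Cdc20, Ube2c, Espl1).

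Bulk RNA-seq was run on GFP-positive cells sorted from micro-dissected mouse dorsal cortex, in 70 libraries of 23 groups with 2 to 4 libraries each. Newborn neurons (NBN, 14 libraries, E15.5 to PN) and basal progenitors (BP, 23 libraries, E12.5 to PN) came from the Tbr2::GFP line, and neural stem cells (NSC, 33 libraries, E10.5 to PN) came from the Hes5::GFP line. Every animal was wild-type C57Bl/6 carrying its reporter, E stands for embryonic day, and PN is postnatal day 1. The step that separated NBN cells from BP cells, both GFP-positive in the same line, is not described in the labels. Because BP and NBN share one line and NSC come from the other, the effect of the reporter line and that of the cell type cannot be told apart in comparisons with NSC. The labels do not say which libraries came from separate animals, so p-values measure the spread between libraries, which may be technical.

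During mitosis, cyclin B bound to Cdk1 drives entry into division, the aurora and polo kinases set up centrosomes and spindle, condensins and topoisomerase II compact and untangle the chromosomes, and the kinetochore ties each chromosome to the spindle. The checkpoint kinases hold back the anaphase promoting complex until every chromosome is attached, after which separase cuts cohesin and the passenger complex and central spindle guide cytokinesis. In the developing cortex, neural stem cells divide at the ventricle and basal progenitors divide away from it, while newborn neurons have left the cell cycle. Transcripts of many mitotic genes accumulate late in the cycle, and much of that timing is known to run through 2 promoter elements. The DREAM complex, MYBL2 and FOXM1 act through the cell cycle genes homology region (CHR), and NF-Y binds the CCAAT box.

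The promoters are shown first, since many of them hold these elements. RefSeq promoters of build GRCm38.p6, running from 250 bases before to 50 after the start site, were found for 39 of the 45 genes; Aurkb, Ccna2, Incenp, Kif20a, Smc4 and Tpx2 had no entry. The windows shown cover 130 bases before and 30 after the start, 5′ to 3′ on the gene's strand, with every CCAAT or its complement ATTGG, and every TTTGAA or its complement TTCAAA, in capitals. They lie at chr13:100786457-100786616 (minus strand) for Ccnb1, the main mitotic cyclin, chr9:70421525-70421684 (minus) for Ccnb2, chr10:69352883-69353042 (minus) for Cdk1, chr4:118437314-118437473 (minus) for Cdc20, which activates the anaphase promoting complex, chr5:30666756-30666915 (plus) for Cenpa, the centromeric histone H3 variant, chr9:61946770-61946929 (minus) for Kif23, a central spindle kinesin, and chr15:99651627-99651786 (minus) for Racgap1, its partner. Ccnb1 is shown because it has CCAAT boxes with no CHR hexamer, and the other 6 because they have both in this window, from different roles.
Ccnb1: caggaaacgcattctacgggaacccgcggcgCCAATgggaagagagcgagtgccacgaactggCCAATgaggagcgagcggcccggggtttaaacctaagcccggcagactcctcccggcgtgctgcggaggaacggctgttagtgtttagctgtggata
Ccnb2: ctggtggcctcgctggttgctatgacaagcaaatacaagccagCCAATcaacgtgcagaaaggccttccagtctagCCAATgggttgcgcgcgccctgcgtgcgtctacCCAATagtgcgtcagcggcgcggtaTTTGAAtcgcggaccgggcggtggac
Cdk1: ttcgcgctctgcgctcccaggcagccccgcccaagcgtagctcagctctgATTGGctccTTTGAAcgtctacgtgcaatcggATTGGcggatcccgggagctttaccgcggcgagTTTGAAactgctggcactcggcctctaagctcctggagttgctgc
Cdc20: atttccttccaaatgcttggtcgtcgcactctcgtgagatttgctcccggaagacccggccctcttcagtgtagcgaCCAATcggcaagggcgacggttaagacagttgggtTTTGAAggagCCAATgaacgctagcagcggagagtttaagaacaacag
Cenpa: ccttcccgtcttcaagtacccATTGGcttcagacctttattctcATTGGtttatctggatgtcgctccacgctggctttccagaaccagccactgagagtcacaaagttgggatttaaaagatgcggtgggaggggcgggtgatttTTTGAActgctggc
Kif23: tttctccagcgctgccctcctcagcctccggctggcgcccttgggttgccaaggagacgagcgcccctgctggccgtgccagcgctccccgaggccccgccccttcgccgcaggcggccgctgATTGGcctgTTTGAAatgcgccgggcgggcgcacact
Racgap1: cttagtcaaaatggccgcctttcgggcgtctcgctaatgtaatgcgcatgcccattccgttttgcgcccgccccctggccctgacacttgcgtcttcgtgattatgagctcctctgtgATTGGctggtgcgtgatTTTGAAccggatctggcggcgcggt

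The 39 genes had 41 promoters, and a gene was counted when any of its promoters held a match. A CHR hexamer, TTTGAA or TTCGAA on either strand, was present for 33 of the 39 genes (84.6%), against 21.7% of 27025 genes with an entry. TTTGAA alone was present for 82.1% of these members, against 20.2% of all genes. A CCAAT box was present on either strand for 30 of 39 (76.9%), against 41.1%, and its share among 13 cell cycle inhibitor genes was also 76.9%. Both elements were present in 28 of 39 (71.8%), against 8.61%. The hexamer set includes TTTGAA itself, and a hexamer and a CCAAT box shared a base only in the promoter of Cdca8.

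**Figure D1:**
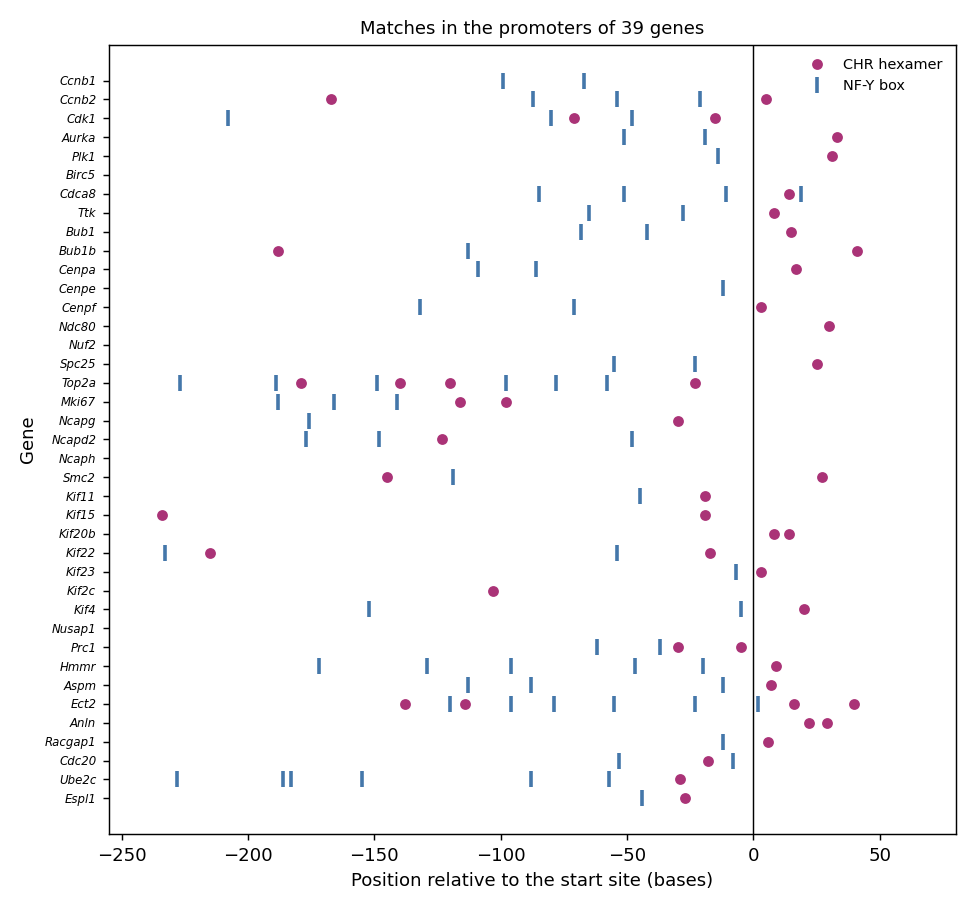
Positions of CHR hexamers and CCAAT boxes in the promoters of the 39 members with an entry, in bases from the start site, one line per gene. The CHR hexamers of 30 of the genes cluster around the start site, while CCAAT boxes lie mostly before it.

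The hexamers sat close to the start. In 30 genes at least 1 CHR hexamer began between 30 bases before and 41 bases after the start site. In the last 110 bases of the window, a limit chosen after the positions were seen, 76.9% of members had one, against 6.79% of all genes. No CHR match was found in 6 members, namely Ccnb1, Birc5, Cenpe, Nuf2, Ncaph and Nusap1. A match describes letters in this window and shows no binding.

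Levels are given in TPM, the unit of transcript abundance the authors deposited, which is corrected for transcript length and scaled to the same total in every library, so that levels of different genes can be set side by side. The library totals are fixed by this unit and the sequencing depth is unknown. The sum of the 45 members' TPM averaged 356 in NBN, 1513 in BP and 4226 in NSC, over all libraries of each type. In bulk libraries, fewer dividing cells and less RNA per cell cannot be told apart. Of the genes behind the reporters, Hes5, a Notch target of neural stem cells, averaged 3.51 TPM in NBN, 4.25 TPM in BP and 163 TPM in NSC, and every NSC library was above every BP and NBN library. Eomes, which encodes Tbr2, averaged 25.1 TPM in NBN, 421 TPM in BP and 303 TPM in NSC, but it went against that order at single stages. It had 407 and 432 TPM in BP at E17.5, against 737, 532 and 551 TPM in NSC, and 299.5, 297 and 248 TPM in BP at E14.5, against 488, 498 and 301 TPM in NSC. At E13.5 the libraries overlapped, with 380, 397 and 400 TPM in BP, against 326, 420, 578.5 and 478 TPM in NSC. At E17.5 the summed basal progenitor markers were 1434 and 1560 TPM in BP, against 1979 to 2213 TPM in NSC. At E13.5 these sums were 1402 to 1457 TPM in BP, against 1373 to 2113 TPM in NSC. BP libraries also held summed postmitotic neuron markers of 4010 to 7537 TPM, against 1163 to 6473 TPM in NSC of the same stages, over 10 genes of which none was at 0 throughout. The part of these other transcripts in the differences between cell types was not tested. All samples are labelled female, yet Y-linked transcripts summed to at least 1 TPM in 53 libraries. NSC PN replicate 3 carries the cell type basal progenitor in one label and NSC in its title, and counts of called members that rest on it are given with and without it. Without it the counts given below were again 43 for BP against NSC, 44 for NBN against NSC and 32 for the interaction, and the members' summed level at PN was 3848 TPM in this library and 3940 and 4030 TPM in the other NSC libraries.

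**Figure D2:**
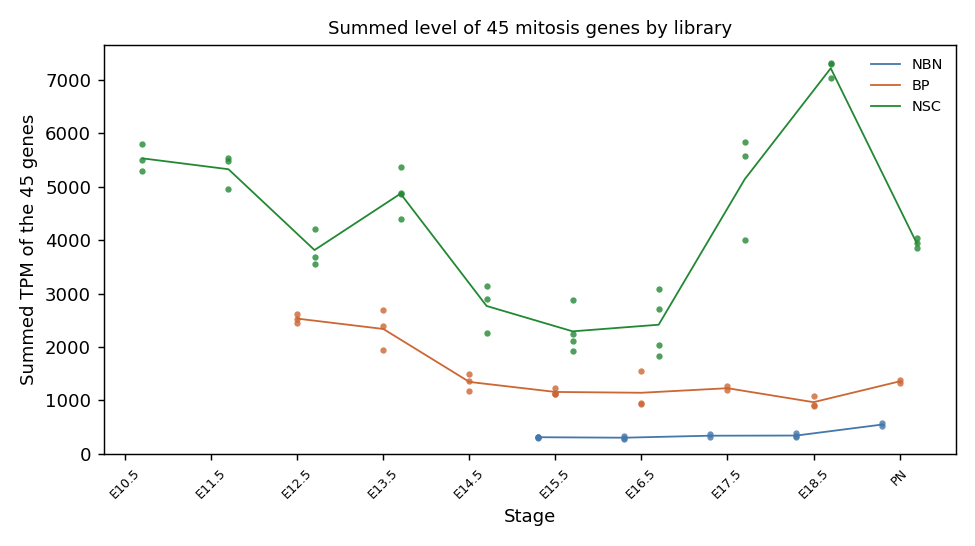
Summed TPM of the 45 genes in each library (points) and the group mean (lines), by stage, for NBN, BP and NSC. NSC were high at E10.5, low from E14.5 to E16.5 and highest at E18.5, BP were highest at E12.5 and E13.5, and NBN stayed lowest throughout.

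In NSC the summed level was high at E10.5 and E11.5, low from E14.5 to E16.5 and highest at E18.5, and at PN it was below the E13.5 level. It averaged 5528 ± 253 TPM at E10.5, 5324 at E11.5, 3813 at E12.5, 4868 at E13.5, 2768 at E14.5, 2293 at E15.5, 2417 at E16.5, 5137 at E17.5, 7212 ± 153 at E18.5 and 3939 at PN (SD, n = 3 at E10.5 and at E18.5). In BP the sum was 2531 TPM at E12.5, 2337 at E13.5, 1347 at E14.5, 1160 at E15.5, 1144 at E16.5, 1230 at E17.5, 968.5 at E18.5 and 1357 at PN. In NBN it was 313 TPM at E15.5, 304 at E16.5, 342 at E17.5, 344 at E18.5 and 550.5 at PN. At each shared stage NBN had the smallest mean sum and NSC the largest.

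Single genes mostly shared this order of cell types but not 1 time course. Over the 23 group means of log2(TPM + 1), the first principal component of the members held 96.0% of their variance and the second 2.68%. In NSC, 29 members had their highest mean at E18.5, 15 at E10.5 and 1 at E11.5, while 19 had their lowest at E16.5, 18 at E15.5 and 8 at E10.5. In BP, 27 members were highest at E12.5 and 16 at E13.5, and 33 were lowest at E18.5. In NBN all 45 were highest at PN.

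For each role, the member with the highest mean over all libraries is described at every stage. Among the cyclins this was Ccnb1, at chr13:100778650-100786570 on the minus strand in the GENCODE annotation of GRCm38. In NSC it averaged 438 ± 7.96 TPM at E10.5, 361 ± 29.0 at E11.5, 182 ± 23.7 at E12.5, 275 ± 13.2 at E13.5, 126 ± 23.1 at E14.5, 118 ± 26.5 at E15.5, 96.5 ± 27.4 at E16.5, 276 ± 69.9 at E17.5, 349.6 ± 11.6 at E18.5 and 186 ± 11.04 at PN (SD, n = 3 or 4). In BP it averaged 128 TPM at E12.5, 119 at E13.5, 66.5 at E14.5, 45.7 at E15.5, 42.9 at E16.5, 38.0 at E17.5, 31.6 at E18.5 and 46.4 at PN. In NBN it averaged 7.42 TPM at E15.5, 7.08 at E16.5, 7.93 at E17.5, 8.01 at E18.5 and 13.8 at PN. The wide SD in NSC at E17.5 came from replicate 1, with 195 TPM against 318 and 314 TPM in the others, and in BP at E16.5 replicate 1 had 70.6 TPM against 27.6 and 30.3 TPM.

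Plk1, the polo kinase that acts at centrosomes and kinetochores, ran in parallel at a lower level. Its NSC means were 158 TPM at E10.5, 139 at E11.5, 66.4 at E12.5, 112 at E13.5, 52.4 at E14.5, 50.5 at E15.5, 39.8 at E16.5, 107 at E17.5, 124 at E18.5 and 57.6 at PN. BP means were 55.6 TPM at E12.5, 40.8 at E13.5, 28.7 at E14.5, 20.3 at E15.5, 18.1 at E16.5, 16.1 at E17.5, 15.8 at E18.5 and 19.4 at PN, and NBN means lay between 5.21 TPM at E16.5 and 8.13 TPM at PN. Cdca8, which encodes the passenger complex subunit borealin (chr4:124918465-124939311, minus strand), followed the same path. Its NSC means were 321 TPM at E10.5, 283 at E11.5, 190.3 at E12.5, 209.7 at E13.5, 116 at E14.5, 90.02 at E15.5, 86.4 at E16.5, 202 at E17.5, 251 at E18.5 and 156 at PN. BP means were 91.6 TPM at E12.5, 77.8 at E13.5, 53.5 at E14.5, 34.9 at E15.5, 31.7 at E16.5, 31.6 at E17.5, 27.7 at E18.5 and 40.5 at PN, and NBN means lay between 11.02 TPM at E15.5 and 17.4 TPM at PN.

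Bub1b, the checkpoint protein BubR1, had its highest NSC mean at the earliest stage. It averaged 184 TPM at E10.5, 145.3 at E11.5, 66.5 at E12.5, 127 at E13.5, 56.3 at E14.5, 47.5 at E15.5, 48.8 at E16.5, 127 at E17.5, 133 at E18.5 and 63.6 at PN. In BP it moved within 25.2 TPM at E16.5 and 48.7 TPM at E12.5, and in NBN within 7.003 TPM at E15.5 and 14.8 TPM at PN. Cenpa was instead highest at E18.5. Its NSC means were 185.2 TPM at E10.5, 181 at E11.5, 176 at E12.5, 172 at E13.5, 100.3 at E14.5, 74.8 at E15.5, 69.0 at E16.5, 157 at E17.5, 210.1 at E18.5 and 141 at PN. In BP it ranged between 28.2 TPM at E17.5 and 79.8 TPM at E12.5, and in NBN between 5.38 TPM at E15.5 and 11.8 TPM at PN.

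Ncapd2, a subunit of condensin I (chr6:125168007-125191701, minus strand), was the exception among the chromosome structure genes. Its NSC means were 308 TPM at E10.5, 305 at E11.5, 130.3 at E12.5, 238 at E13.5, 102 at E14.5, 102 at E15.5, 97.3 at E16.5, 209 at E17.5, 200.1 at E18.5 and 145.01 at PN. In BP it averaged 151 TPM at E12.5, 125.2 at E13.5, 115.1 at E14.5, 109 at E15.5, 108 at E16.5, 121 at E17.5, 107 at E18.5 and 108 at PN. In NBN it averaged 61.8 TPM at E15.5, 72.1 at E16.5, 82.1 at E17.5, 76.2 at E18.5 and 95.7 at PN. At E12.5 and from E14.5 to E16.5 its BP means were above its NSC means by less than the SD of the NSC libraries. Among the chromosome structure genes, the next highest NBN mean at any stage was that of Smc4, with 23.9 TPM at PN. The exons of Ncapd2 share 235 bases with Gm28967 and 237 bases with the small RNA gene Scarna10 on the same strand, and reads of overlapping genes cannot be told apart.

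The remaining roles were led by Kif22, Tpx2, Racgap1 and Ube2c. Kif22, a chromosome-bound kinesin, averaged in NSC 173 TPM at E10.5, 55.9 at E16.5 and 158 at E18.5, in BP 57.9 TPM at E12.5 and 20.8 at E18.5, and in NBN between 5.52 TPM at E17.5 and 10.9 at PN. Tpx2, which activates Aurora A on the spindle, averaged in NSC 203 TPM at E10.5, 71.6 at E15.5 and 213 at E18.5, in BP 84.3 TPM at E12.5 and 28.0 at E18.5, and in NBN between 5.76 TPM at E15.5 and 11.3 at PN. Both genes had their lowest NSC mean in the middle of the series. Racgap1, a GTPase activating protein of the central spindle, averaged in NSC 277 TPM at E10.5, 157 at E15.5 and 426 ± 5.83 at E18.5, in BP 173 TPM at E12.5 and 85.0 at E18.5, and in NBN between 32.3 TPM at E15.5 and 47.2 at PN. Ube2c, the ubiquitin-conjugating enzyme of the anaphase promoting complex, averaged in NSC 251 TPM at E10.5, 302 at E13.5, 103 at E16.5 and 323 at E18.5, in BP 186 TPM at E12.5 and 42.5 at E17.5, and in NBN between 10.2 TPM at E16.5 and 19.7 at PN. At E13.5 the NSC libraries had 268 to 344 TPM of Ube2c, 118 to 131 TPM of Kif22 and 164 to 187 TPM of Tpx2. At E12.5 Kif22 and Tpx2 averaged 99.8 and 107 TPM in NSC.

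The first comparison set BP against NSC over their 8 shared stages, E12.5 to PN, weighting each stage equally. Of the 45 members, 43 were lower in BP and none higher, where 6.22% of the 15508 tested genes were lower. A gene was called when the limma test gave a Benjamini-Hochberg adjusted p under 0.05 over all tested genes and the log2(TPM + 1) difference was at least 1. The median difference of the members was -1.46 on the log2(TPM + 1) scale, beside -0.02 over all tested genes. This scale understates the change of genes at low levels.

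Members of every role were lower in BP. The cyclins and Cdk1 were called in 4 of 4 (median -1.57), the passenger complex in 4 of 4 (median -1.67), the kinetochore genes in 6 of 6 (median -1.45) and the kinesins in 8 of 8 (median -1.47). The checkpoint kinases, the cytokinesis genes and the anaphase promoting complex with separase were each called in 3 of 3, and Aurka and Plk1 in 2 of 2. Cdca8 had 22.2, 38.6 and 101 TPM (lowest, median and highest) in the 23 BP libraries, against 64.0, 158 and 265 TPM in the 27 NSC libraries. The ranges over all stages overlapped, but at each of the 8 stages every BP library was below every NSC library. Its log2 difference was -1.75 ± 0.06 (SE, limma adjusted p = 2.74e-31).

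Aurkb, the kinase of the passenger complex, had 11.8, 20.6 and 40.3 TPM in BP, against 31.5, 78.7 and 144 TPM in NSC. Its log2 difference was -1.73 ± 0.07 (SE, limma adjusted p = 2.85e-29). Ccnb1 had 26.5, 47.0 and 149 TPM in BP, against 68.7, 177 and 363 TPM in NSC. BP of Ccnb1 lay below NSC at 7 of 8 stages, the exception being E16.5, where BP replicate 1 had 70.6 TPM and the lowest NSC library 68.7 TPM. Birc5, which encodes survivin, had 16.3, 24.6 and 76.7 TPM in BP and 36.3, 95.1 and 164.6 TPM in NSC, and Cdc20 had 25.9, 40.9 and 102 TPM in BP and 61.9, 128 and 241 TPM in NSC. Their log2 differences were -1.61 ± 0.07 and -1.60 ± 0.06 (SE), with limma adjusted p of 1.3e-28 and 1.06e-29.

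The 2 members that were not called were Ncapd2 and Hmmr. Ncapd2 had 100.4, 111 and 157 TPM in BP, against 66.8, 138 and 288 TPM in NSC, and its difference was -0.28 ± 0.06 (SE, limma adjusted p = 4.29e-05). The whole BP range of Ncapd2 lay inside its NSC range. Hmmr, a spindle-binding protein, differed by -0.98 ± 0.06 (SE), just under the minimum.

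The gap was smallest at E12.5 and largest at E18.5. Members lower in BP numbered 5 at E12.5 (4.72% of tested genes were lower), 22 at E13.5 (7.48%), 27 at E14.5 (4.89%), 21 at E15.5 (2.97%), 36 at E16.5 (5.26%), 37 at E17.5 (10.5%), 44 at E18.5 (13.8%) and 42 at PN (15.6%), with none higher at any stage. The 5 at E12.5 were Birc5, Cdca8, Cenpa, Smc4 and Kif15, at log2 differences of -1.13, -1.05, -1.12, -1.06 and -1.01. The median member difference was -0.58 at E12.5 and -2.997 at E18.5. Scaling and single libraries moved the smaller counts: that at E12.5 was 12 under median ratio scaling or quantile normalization, 3 without NSC replicate 2, 9 without NSC replicate 3 and 8 without BP replicate 1, and that at E15.5 was 13 without NSC replicate 3. Without NSC PN replicate 3, 44 members were lower at PN instead of 42.

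Members whose libraries did not overlap were also counted. Every BP library was below every NSC library for 31 members at E12.5 (23.2% of tested genes), 32 at E13.5 (28.2%), 44 at E14.5 (33.1%), 42 at E15.5 (17.2%), 40 at E16.5 (28.0%), 41 at E17.5 (38.3%), and 45 at both E18.5 (38.1%) and PN (43.1%). No member was above NSC in every BP library at any stage. Of the 45, 18 members were separated in this way at all 8 stages and 19 more at 7, and Ncapd2 at 4. The share of all tested genes separated at that many stages was not worked out, so these counts have no background beside them.

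**Figure D3:**
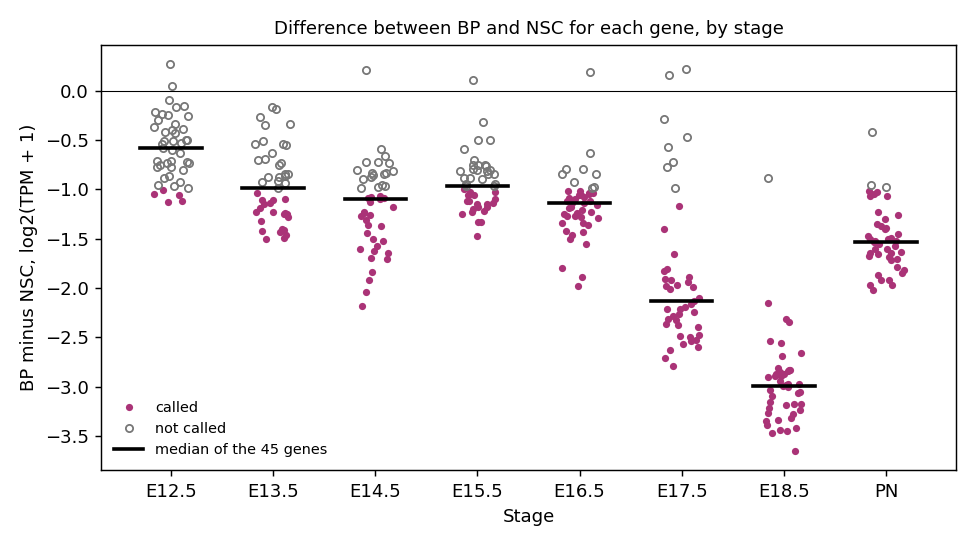
Log2(TPM + 1) difference, BP minus NSC, of each of the 45 genes at each shared stage (points), with the members' median (line). The median lies at -0.58 at E12.5 and -2.997 at E18.5.

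The change of this gap was tested directly. The late window was E17.5, E18.5 and PN, and the mid window E13.5, E14.5 and E15.5. In the interaction, 32 of 45 members had a lower BP minus NSC difference late than mid, where 6.85% of tested genes did, and none had a higher one. The members' median interaction was -1.15, beside 0.01 over all tested genes. With E18.5 left out of the late window, an alternative added after seeing the data, 7 members were called. The postmitotic neuron markers summed to 4010 to 5521 TPM in late BP, against 5575 to 7227 TPM in mid BP, and to 1163 to 2790 TPM in late NSC, against 2855 to 6473 TPM in mid NSC. Their level in BP relative to NSC was thus higher late than mid, and their part in the interaction was not tested.

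Ccnb1 had the largest interaction. Its late BP libraries had 38.8 and 37.3 TPM at E17.5, 26.5, 36.8 and 31.4 at E18.5 and 45.8 and 47.0 at PN, and its mid BP libraries 149, 107 and 100.1 TPM at E13.5, 69.1, 74.0 and 56.5 at E14.5 and 52.0, 42.4, 42.9 and 45.4 at E15.5. Its late NSC libraries had 195, 318 and 314 TPM at E17.5, 363, 341 and 345 at E18.5 and 177, 198 and 181 at PN, and its mid NSC libraries 283, 287, 257 and 274 TPM at E13.5, 141, 137 and 99.1 at E14.5 and 110.2, 107, 157 and 97.6 at E15.5. Late BP were mostly below mid BP, with an overlap at E15.5, while late NSC at E17.5 and E18.5 were mostly above mid NSC. The interaction was -1.58 ± 0.18 (SE, limma adjusted p = 6.15e-11).

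The next largest values belonged to genes of other roles as well. Cdk1, the kinase bound by the B cyclins, had -1.51 ± 0.16 (SE, limma adjusted p = 2.73e-11), and Top2a, topoisomerase II alpha, had -1.44 ± 0.16. Ndc80, which binds microtubules at the kinetochore, had -1.42 ± 0.19 and Ube2c -1.39 ± 0.16. All 4 cyclins and Cdk1 members and all 4 passenger complex members were called, while 3 of 7 chromosome structure genes and 4 of 8 kinesins were. The members not called were Bub1b, Cenpe, Cenpf, Mki67, Ncapd2, Smc2, Smc4, Kif15, Kif20a, Kif20b, Kif23, Hmmr and Racgap1, with Smc4 at -0.23 ± 0.26 (SE).

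Within BP alone, late against mid gave no call, where 4.71% of tested genes were called, 1.42% lower and 3.29% higher. In limma at an unadjusted p under 0.05, 28 members were lower and 1 was higher. All 29 also had an adjusted p under 0.05 with a difference below the minimum. At that adjusted p without the minimum, 2860 of the 15508 tested genes were lower and 6451 were higher. The median was -0.38, beside 0.12 for all tested genes. The cyclins and Cdk1 had the median -0.64 and the anaphase promoting complex with separase -0.69, while the chromosome structure genes had -0.05. Under median ratio scaling 2 members were called, and 1 under quantile normalization.

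NBN were then set against BP over the 5 shared stages, E15.5 to PN. Of the 45 members, 43 were lower in NBN and none higher, where 5.06% of tested genes were lower. The median was -1.73, beside -0.07 for all tested genes. Mki67, the proliferation marker Ki-67 that coats mitotic chromosomes (chr7:135689784-135716361, minus strand), had 1.37, 3.04 and 10.5 TPM in the 14 NBN libraries, against 17.4, 24.8 and 45.03 TPM in the 14 BP libraries. The groups did not overlap. The log2 difference was -2.66 ± 0.13 (SE, limma adjusted p = 1.47e-25).

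Spc25, a subunit of the NDC80 complex, had 3.95, 6.03 and 12.9 TPM in NBN, against 28.1, 37.8 and 67.4 TPM in BP. Top2a (chr11:98992943-99024189, minus strand) had 6.41, 8.49 and 20.2 TPM in NBN, against 35.7, 55.6 and 87.5 TPM in BP. Neither gene's groups overlapped, and the log2 differences were -2.47 ± 0.11 and -2.41 ± 0.09 (SE), with limma adjusted p of 9.07e-27 and 8.77e-29. Kif11, the kinesin that pushes spindle poles apart, differed by -2.15 ± 0.10 and Cenpa by -2.11 ± 0.09 (SE).

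The 2 members not called were Ncapd2 and Kif20a. Ncapd2 had 59.7, 72.4 and 99.97 TPM in NBN, against 102, 109 and 123 TPM in BP. These ranges did not overlap, and the difference was -0.52 ± 0.08 (SE, limma adjusted p = 1.43e-07). Kif20a, a cytokinesis kinesin, had 10.2, 11.9 and 13.6 TPM in NBN, against 18.8, 22.8 and 29.99 TPM in BP, and differed by -0.90 ± 0.06. Its exons share 1271 bases with Cdc23 on the opposite strand, and the library kit does not mark strand, so reads of both genes cannot be told apart. The same holds for Ccna2, Cdc20, Cdca8, Kif22, Kif4, Ncapg, Nusap1, Plk1, Prc1 and Ube2c, whose exons share 53 to 944 bases with a gene on the opposite strand.

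Against NSC at the same 5 stages, 44 members were lower in NBN and none higher, where 12.6% of tested genes were lower. The median was -3.49, beside -0.12 for all tested genes, and both this comparison and the last use the same NBN libraries. Top2a had 6.41, 8.49 and 20.2 TPM in NBN, against 92.8, 228 and 435 TPM in the 17 NSC libraries. Mki67 had 1.37, 3.04 and 10.5 TPM in NBN, against 34.0, 89.6 and 257 TPM in NSC. The lowest NSC library was above the highest NBN library for both, and the differences were -4.34 ± 0.09 and -4.32 ± 0.12 (SE, limma adjusted p = 1.23e-41 and 6.9e-37). Ccnb1, Spc25 and Kif11 followed with -4.25, -4.06 and -4.02, and Ncapd2 was not called at -0.88 ± 0.08.

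A residual level of these transcripts was measured in NBN. Racgap1 had 29.9, 34.1 and 47.7 TPM in NBN, against 77.2, 91.0 and 118 TPM in BP. NBN libraries also held neural stem cell markers at a summed 235 to 496 TPM over 10 genes and basal progenitor markers at 162 to 366 TPM over 8 genes, with no marker at 0 throughout. The part of those transcripts in the NBN levels was not tested.

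Late against mid in NBN (E17.5, E18.5 and PN against E15.5 and E16.5) gave no call, where 2.33% of tested genes were called, 1.27% higher. At a limma adjusted p under 0.05 with no minimum, 33 members were higher and none lower. Of the 15508 tested genes, 2984 were higher and 2366 lower in that way. The members' median difference was 0.37, beside 0.03 for all tested genes. The step between PN and E18.5, a comparison added after seeing the data, gave 5 members higher in NBN at PN, where 1.07% of tested genes were higher. Top2a had 20.2 and 18.2 TPM at PN, against 6.41, 6.62 and 10.6 TPM at E18.5. Mki67 had 10.5 and 9.16 TPM at PN, against 2.87, 2.74 and 3.79 TPM at E18.5. Both PN libraries were above all E18.5 libraries for each gene, and the differences were 1.22 ± 0.22 and 1.40 ± 0.29 (SE, limma adjusted p = 7.7e-05 and 0.00051).

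The other 3 were Kif11 at 1.12, Bub1, a checkpoint kinase, at 1.04 and Ndc80 at 1.01. With a pseudocount of 0.5 the count was 13 and with 5 it was 0, and it was 10 without NBN E18.5 replicate 3 and 3 without NBN PN replicate 1. Beside this, the basal progenitor markers summed to 351 and 366 TPM in NBN at PN, against 187 to 240.1 TPM at E18.5, and the postmitotic neuron markers to 6055 and 6126 TPM, against 7936 to 8099 TPM. Their part in the difference was not tested.

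Mid NSC (E13.5, E14.5 and E15.5 together) were then set against early NSC (E10.5 and E11.5). Of the 45 members, 14 were lower and none higher, where 5.26% of tested genes were lower and 13.7% higher. The median was -0.56, beside 0.14 for all tested genes. The 14 were Ccnb1, Ccnb2, Cdk1, Aurka, Plk1, Birc5, Incenp, Cdca8, Bub1b, Ncapd2, Kif20a, Kif22, Kif2c and Espl1. They thus held 3 of 4 cyclins and Cdk1, both of Aurka and Plk1, and 3 of 4 passenger complex genes. None of 6 kinetochore genes, none of 5 spindle proteins and none of 3 cytokinesis genes reached the minimum. All genes of those roles but Cenpe (0.04) and Aspm (0.21) still had a negative difference. Among them were Tpx2 at -0.93, Nuf2 at -0.83, Cenpa at -0.75 and Racgap1 at -0.56.

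Ccnb1 had 429, 441 and 443 TPM at E10.5 and 376, 381 and 328 TPM at E11.5 in NSC, above every mid library, of which the highest had 287 TPM. Its mid against early difference was -1.32 ± 0.13 (SE, limma adjusted p = 5.64e-13). Birc5 differed by -1.32 ± 0.12 (SE, limma adjusted p = 6.58e-15), Kif20a by -1.24 ± 0.08, Bub1b by -1.22 ± 0.11 and Cdca8 by -1.22 ± 0.11. Members not called ranged from Cdc20 at -0.95 to Smc4 at 0.33. Among them, Mki67 differed by 0.27 ± 0.16 (SE, limma adjusted p = 0.121), Kif11 by 0.19 ± 0.13 and Cenpe, a kinetochore motor, by 0.04 ± 0.17.

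Other cell types' transcripts moved over the same windows. The postmitotic neuron markers summed to 2855 to 6473 TPM in mid NSC, against 417 to 2997 TPM in early NSC, and 9 of 10 were higher. The erythroid markers summed to 0.565 to 107 TPM in mid NSC, against 1191 to 8043 TPM in early NSC, and 6 of 6 tested were lower. Their part in the members' differences was not tested.

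Late NSC (E17.5, E18.5 and PN) against mid NSC gave 5 of 45 members higher and none lower. This share was close to the 9.31% of tested genes that were higher. All 45 members had a positive difference with an adjusted p under 0.05, and 40 of them missed the minimum of 1. Without the minimum, 6998 of the 15508 tested genes were higher and 3875 were lower. The members' median difference was 0.78, beside 0.12 for all tested genes. Ndc80 had 37.6, 36.2 and 49.7 TPM at E17.5, 71.2, 67.1 and 77.1 at E18.5 and 45.3, 48.8 and 41.9 at PN in late NSC, and 52.1, 28.7, 24.3 and 32.7 TPM at E13.5, 26.1, 24.7 and 16.6 at E14.5 and 14.7, 15.1, 19.6 and 11.7 at E15.5 in mid NSC. Only E13.5 replicate 1 reached into the late range. The difference was 1.16 ± 0.13 (SE, limma adjusted p = 1.01e-11).

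The other called genes were Kif11 at 1.16 ± 0.11, Aspm, a spindle pole protein whose loss causes microcephaly in humans, at 1.14 ± 0.11, Anln, the cleavage furrow scaffold anillin, at 1.10 ± 0.10, and Top2a at 1.08 ± 0.11. Without E18.5 in the late window, an alternative added after seeing the data, no member was called, and without PN 18 were. Median ratio scaling gave 3 and array weights 14. The count was 6 without NSC PN replicate 3, 11 without NSC E13.5 replicate 1 and 8 without NSC E15.5 replicate 3 or NSC E17.5 replicate 2. Late NSC also held oligodendrocyte precursor markers at a summed 389.5 to 1730 TPM, against 5.16 to 46.2 TPM in mid NSC, with 6 of 6 higher. Postmitotic neuron markers summed to 1163 to 2790 TPM in late NSC, against 2855 to 6473 TPM in mid NSC, with 7 of 10 lower. The part of these transcripts in the members' differences was not tested.

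Steps between neighbouring stages, added after seeing the data, placed the changes in NSC. E11.5 against E10.5 had 5 members higher (7.59% of tested genes were higher): Cenpe, Cenpf, Mki67, Smc2 and Smc4, and 2 without NSC E10.5 replicate 1 or NSC E11.5 replicate 2. Under median ratio scaling and under quantile normalization it had 0 called members. E12.5 against E11.5 had 5 lower (4.79%): Plk1, Bub1b, Ncapd2, Kif20a and Espl1, the separase, and 1 without NSC E12.5 replicate 3 or under quantile normalization. E13.5 against E12.5 had no call (3.96% of tested genes were called, 3.60% higher). At a limma adjusted p under 0.05 with no minimum it had 21 members higher and 3 lower, beside 5668 and 1686 of the 15508 tested genes. It had 5 called without NSC E13.5 replicate 1, 3 without NSC E12.5 replicate 2 and 2 without NSC E12.5 replicate 3. E14.5 against E13.5 had 12 lower (1.06%), among them Ncapd2 at -1.23, Bub1b at -1.17, Ccnb1 at -1.14 and Tpx2 at -1.14, but 4 without NSC E14.5 replicate 3.

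The next 2 steps held few calls. E15.5 against E14.5 had 2 lower (0.516%), Cenpe at -1.10 and Cenpf at -1.003, and E16.5 against E15.5 had 3 higher (3.06%), Cenpe, Cenpf and Mki67. The first of these counts was 1 without NSC E14.5 replicate 2, E15.5 replicate 2 or E15.5 replicate 4, and the second was 1 without NSC E15.5 replicate 2 or 4 or E16.5 replicate 1 or 4, and under median ratio scaling. E17.5 against E16.5 had 31 higher (6.28%), from every role, led by Cdk1 at 1.57 and Ccnb1 at 1.51. At a limma adjusted p under 0.05 with no minimum, 38 members were higher and 4 lower, beside 4654 and 4277 of the 15508 tested genes. The members lower were Cenpe at -0.92, Cenpf at -0.79, Smc4 at -0.80 and Kif20b at -0.93. E18.5 against E17.5 had 9 higher (1.84%): Cenpe, Smc4, Kif20b, Cenpf, Mki67, Smc2, Kif15, Ncapg and Hmmr. PN against E18.5 had 20 lower (0.999%), led by Cenpe at -1.80 and Cenpf at -1.66, and 19 without NSC PN replicate 3.

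The genes of the E18.5 step are shown beside their base composition. Smc4, a core subunit of condensin (chr3:69004738-69034623, plus strand), had 296, 256 and 271 TPM at E18.5, against 52.2, 29.4 and 70.5 TPM at E17.5. Cenpe had 71.8, 62.8 and 61.4 TPM at E18.5, against 9.07, 8.27 and 16.03 TPM at E17.5. Both were far higher in all 3 E18.5 libraries, with differences of 2.50 ± 0.32 and 2.50 ± 0.28 (SE, limma adjusted p = 2.58e-08 and 9.09e-10). Smc4 and Cenpe have coding transcripts of 40.2% and 42.9% GC, while Ncapd2, at 54.0% GC, had 172, 216 and 213 TPM at E18.5, against 182, 225 and 219 TPM at E17.5, and differed by -0.06 ± 0.17.

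Across all 45 members, the NSC difference of E18.5 minus E10.5, the ends with the highest summed levels, ran with GC content. Every E18.5 library was above every E10.5 library for 27 members (53.7% of tested genes) and below for 13 (23.8%), and 5 overlapped. The 15 members of lowest GC (39.4% to 43.4%) had a median difference of 1.65, beside 0.87 for all genes in that range. The 15 in the middle had 0.63, beside 0.39, and the 15 of highest GC (48.4% to 56.1%) had -0.31, beside 0.15. Spearman's rho with GC over the 45 genes was -0.77, and with transcript length 0.54. Over 14673 tested genes the values were -0.21 for GC and 0.21 for length. These correlations are across genes that share the same 6 libraries, GC and length are themselves related (rho -0.42), and genes are not independent replicates.

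**Figure D4:**
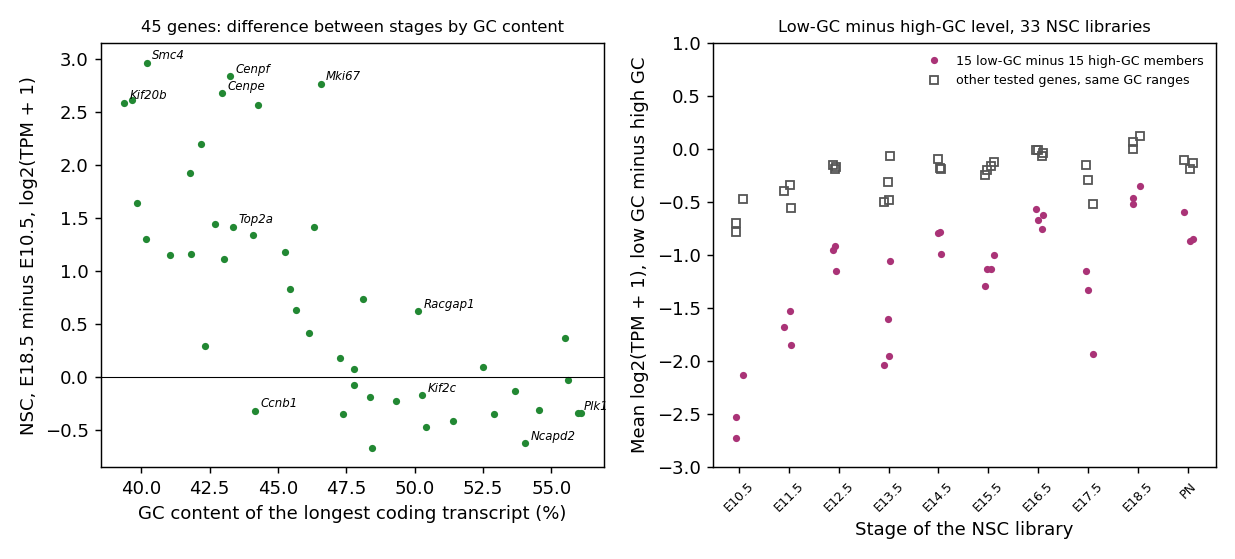
Left, NSC E18.5 minus E10.5 log2(TPM + 1) difference of each member against the GC percent of its longest coding transcript. Right, mean log2 level of the 15 low-GC members minus that of the 15 high-GC members in each NSC library by stage, with the same index over the other tested genes. The low-GC members had a median difference of 1.65 and the high-GC members of -0.31, and both indices were lowest at E10.5 and highest at E18.5.

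An index of this tilt, the mean log2(TPM + 1) of the 15 low-GC members minus that of the 15 high-GC members, was -2.46 at E10.5, -1.68 at E11.5, -1.004 at E12.5, -1.66 at E13.5, -0.86 at E14.5, -1.14 at E15.5, -0.65 at E16.5, -1.47 at E17.5, -0.44 at E18.5 and -0.77 at PN in NSC. The same index over other tested genes, 1782 of low and 5781 of high GC, was -0.65 at E10.5, -0.43 at E11.5, -0.17 at E12.5, -0.34 at E13.5, -0.15 at E14.5, -0.18 at E15.5, -0.03 at E16.5, -0.32 at E17.5, 0.07 at E18.5 and -0.14 at PN. Both indices went down and up at the same steps, and libraries of 1 group differed, with the members' index between -2.04 and -1.06 at E13.5. With the other genes' index of each library as a covariate, an alternative added after seeing the data, the E18.5 step had 5 members higher: Cenpe at 1.70, Cenpf at 1.78, Mki67 at 1.09, Smc4 at 1.28 and Kif20b at 1.56. The step of E11.5 against E10.5 and that of E16.5 against E15.5 had no call with this covariate, and that of E17.5 against E16.5 had 33. The comparisons between cell types had 44 lower for BP against NSC and 41 lower for NBN against BP.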

How the data were processed

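Per the labels' protocols, GFP-positive cells were sorted from dissociated dorsal cortex, RNA was extracted with TRIzol, and libraries were made with the TruSeq RNA kit v2. The authors deposited 1 table of TPM per gene, a transcript abundance scaled to the same total in every library. The submitters' processing notes name kallisto 0.43.0 and the builds GRCm38.p2 and mm10. TPM hold no depth, so no counting error can be given, and a gene that takes a large share of a library lowers all others there.

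Genes were tested where the mean of at least 1 of the 23 groups reached 1 TPM, which left 15508 genes. In place of a count test, limma 3.58.1 (R 4.3.3) with a mean-variance trend was fitted to log2(TPM + 1) of all 70 libraries with 1 mean per group and 47 residual degrees of freedom. Windows weight stages equally. On simulated data with 200 genes changed by more than the minimum difference, 99.5% were recovered for BP against NSC and 100% for NSC late against mid. Smaller changes were not simulated, so these rates do not cover differences near or under the minimum. The members, roles and other gene lists were chosen with earlier results of these data known. The text names, in each of the first 8 comparisons, the 5 largest called differences in each direction, plus the member of highest mean level in each role, and up to 3 called genes of each other list and direction. Uncalled members and those of the steps between stages were named after their values were seen. Promoters are RefSeq's, and GC and length are of the longest coding transcript in the GENCODE annotation. No library was left out of the main values.

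Alternatives covered the pseudocount, the filter, 2 scalings, the samples in the fit, the trend, array weights, a replicate block, Y-linked transcripts, the minimum difference, stages left out and each library left out in turn, and the closing section gives their effect. Replicate numbers were checked and not used to pair libraries.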

Additional observations from a re-analysis of the deposited data

Results flagged for a closer look

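In groups of 4 libraries, 4 of 55 values tested had 1 library far from the other 3 by Dixon's criterion, where chance gives about 1 in 20. NSC E15.5 replicate 3 was the highest of its group for Cdca8, with 116.09 TPM, and for Kif22, with 70.132 TPM. The members' summed level in BP E15.5 replicate 1 was 1231.93 TPM. Plk1 had 6.0424 TPM in NBN E15.5 replicate 4.

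The BP minus NSC difference was lower in the late than in the mid window for 32 members by the limma interaction test, and for 29 to 32 when any 1 library was left out. It was called for 7 members without E18.5.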

How the results depend on the processing

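Alternatives were pseudocounts of 0.5 and 5, no filter, median ratio scaling, quantile normalization, only the compared groups, no trend, array weights, a replicate block, Y-linked transcripts as a covariate, no minimum difference, no PN, and 70 fits without 1 library each. Leaving out E18.5, the GC covariate and the NSC and NBN steps were added after seeing the data. The counts for BP against NSC (43), NBN against BP (43) and NBN against NSC (44) stayed within 1.5 times in all of them.

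With no minimum on the difference, counts were 34 for NSC mid against early, 45 for NSC late against mid, 29 for BP late against mid, 33 for NBN late against mid, and for BP against NSC 32 at E12.5, 40 at E13.5, 44 at E14.5 and 41 at E15.5. For the NSC steps ending at E11.5, E12.5, E13.5, E14.5, E15.5, E16.5, E18.5 and PN they were 13, 23, 24, 36, 7, 9, 18 and 45, and for NBN PN against E18.5 33. Among all tested genes, in the same order, 4712, 5668, 2817 and 4646 were higher and 2512, 1686, 2699 and 2062 lower. The steps ending at E12.5, E15.5 and PN had 4995, 1808 and 2591 genes lower. The E18.5 step had 2098 genes higher and NBN PN against E18.5 2190 higher. In the steps ending at E11.5 and E16.5 the members' shares were below those of all tested genes in both directions. Median ratio scaling gave 3 for NSC late against mid, 2 for BP late against mid, 12 for BP against NSC at E12.5, 0, 3, 2 and 1 for the NSC steps ending at E11.5, E12.5, E13.5 and E16.5, and 3 for NBN PN against E18.5. Quantile normalization gave 1 for BP late against mid, 12 for BP against NSC at E12.5, 0, 1 and 3 for the NSC steps ending at E11.5, E12.5 and E13.5, and 2 for NBN PN against E18.5. A pseudocount of 5 gave 13 at E15.5 and 18 at E16.5 for BP against NSC, 2, 3, 0 and 0 for the NSC steps ending at E11.5, E12.5, E15.5 and E16.5, and 0 for NBN PN against E18.5, while 0.5 gave 13 there. Array weights gave 14 for NSC late against mid, 4 for the step ending at E13.5 and 1 for that ending at E16.5. Without PN, NSC late against mid had 18 and BP late against mid 2. Without E18.5 NSC late against mid had 0 and the interaction 7. The GC covariate gave 8 at E12.5 and 41 at E13.5 for BP against NSC, 0, 2, 1, 0, 5 and 12 for the NSC steps ending at E11.5, E12.5, E15.5, E16.5, E18.5 and PN, and 2 for NBN PN against E18.5. The causes were not tested.

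Leaving out 1 library gave 5 to 11 for NSC late against mid, 3 to 9 at E12.5, 13 to 27 at E15.5 and 24 to 43 at E16.5 for BP against NSC, 2 to 7, 1 to 6, 0 to 5, 4 to 18, 1 to 3 and 1 to 4 for the NSC steps ending at E11.5, E12.5, E13.5, E14.5, E15.5 and E16.5, and 3 to 10 for NBN PN against E18.5. Of 2520 values of named members under alternatives, 2511 kept their call and direction and 9 lost the call, 5 of them without E18.5. With Y-linked transcripts as a covariate, counts were 43, 43 and 44 for the cell type comparisons, 5 for NSC late against mid, 31 for the interaction and 4 for NBN PN against E18.5.

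Same-numbered libraries of a stage had median correlations of 0.12 (BP and NBN), 0.04 (BP and NSC) and -0.04 (NBN and NSC). For libraries of different numbers these were -0.03, -0.05 and 0.02. Between BP and NBN, 8 of 14 same-numbered pairs were over 0.1, against 6 of 28 others. The labels do not say whether such libraries share material, and the tests treat them as separate. With a replicate block, the step of E15.5 against E14.5 had 1 member instead of 2, and no other count moved by over 1.5 times.

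Over all tested genes, median ratio scaling moved the median difference of NBN against NSC to -0.01 (-0.12 unscaled), and that of NSC mid against early to -0.05 (0.14 unscaled). The members' medians were -3.36 and -0.82 with this scaling (-3.49 and -0.56 unscaled). In the step of E16.5 against E15.5 the members' median of 0.05 was -0.10 after median ratio scaling and -0.06 after quantile normalization. With median ratio scaling, the share of higher genes among all calls was 52.7% in NSC mid against early (72.3% unscaled), 56.6% in BP late against mid (69.9%), 47.5% in BP against NSC at E12.5 (68.3%), 69.5%, 56.7% and 63.1% in the NSC steps ending at E11.5, E13.5 and E16.5 (85.0%, 90.9% and 78.1%), and 63.5% in NBN PN against E18.5 (83.0%). With quantile normalization it was 52.5% in NSC mid against early, 58.0% in NSC late against mid (79.2%), even in BP late against mid (328 genes higher and 328 lower), 49.2% in NBN against NSC (34.1%), and 50.3%, 46.0%, 48.8%, 33.9%, 48.0% and 45.2% in BP against NSC at E12.5, E13.5, E14.5, E16.5, E18.5 and PN (68.3%, 35.7%, 33.7%, 15.1%, 37.4% and 26.0%). In the NSC steps ending at E11.5, E12.5, E13.5, E16.5 and PN it was 61.2%, 56.2%, 54.6%, 51.4% and 62.5% (unscaled 45.2% at E12.5 and 84.5% at PN), and 54.4% in NBN PN against E18.5. TPM give no depth, so no statement on what depth limits can be made, and genes near the pseudocount of 1 are the least certain.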

Other observations

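Genes of other phases of the cell cycle were measured beside the members, in lists chosen with earlier results known. Of 34 tested DNA replication genes, 21 were lower in BP than in NSC (median log2 difference -1.18), where 6.22% of all tested genes were. They were led by Mcm3, a helicase subunit, at -2.06, Uhrf1, which maintains DNA methylation at replication, at -1.83 and Tk1, thymidine kinase, at -1.77. In NSC mid against early, 24 of the 34 were lower (median -1.18), led by Cdc6, a licensing factor, at -1.98. In that comparison 14 of the 45 mitotic members and 5.26% of all tested genes were lower. In NSC late against mid, none of the 34 replication genes was called (median 0.50), where 9.31% of all tested genes were higher. By limma, 2 of the 34 were lower in the interaction of BP against NSC, late against mid. This was close to the 6.85% of all tested genes. Of the 49 other mitosis genes tested, 41 were lower in BP than in NSC (median -1.38, beside 6.22% of all tested genes lower), led by Pttg1, securin, at -1.97.

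In NSC mid against early, 5 of 13 cell cycle inhibitors were higher, where 13.7% of all tested genes were, among them Cdkn1b, which encodes p27, at 1.91, Gadd45g at 1.74 and Ccng2 at 1.56, and 1 was lower, Gadd45a at -1.18. Cdkn1c, which encodes p57, was lower in NSC late against mid, at -2.51, and higher in NBN than in NSC, at 1.23. Cdkn2c, which encodes p18, was lower in NBN than in BP, at -2.17, and higher in NSC late against mid, at 1.68. Among the G1 genes, Cdk6 was higher in NSC late against mid, at 1.53, and in BP late against mid, at 1.63. Ccnd1, cyclin D1, was lower in NSC mid against early, at -2.96, and higher in NSC late against mid, at 1.05.

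The genes listed as regulators of mitotic transcription included Foxm1, which was lower in NBN than in BP, at -2.10, and lower in NBN than in NSC, at -3.87. Mybl2 was lower in BP than in NSC, at -1.61, and in NSC mid against early, at -1.45, while Rb1 was higher in NSC mid against early, at 1.73. Among genes with a promoter entry, CHR hexamers were present for 20 of 37 other mitosis genes (54.1%), 6 of 28 DNA replication genes (21.4%) and 1 of 13 inhibitors (7.69%). CCAAT boxes were present for 64.9% of other mitosis, 64.3% of replication and 76.9% of inhibitor genes.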
